A study of Mus musculus with 12 samples.

Results

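Immediate early genes are genes that cells can switch on within minutes of a signal, without making new protein first. This account follows 10 of them in whole mouse embryos: the AP-1 family genes Fos, Fosb, Jun, Junb and Atf3, the Egr family genes Egr1, Egr2 and Egr3, and the fast-response genes Ier2 and Dusp1. They were chosen by name. Each is a gene symbol that the platform annotation gives alone for at least 1 probe set, and all 10 were found among the 18193 genes on the array. Where a gene had several probe sets, the one with the highest mean over the 12 arrays stands for it.

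RNA of whole E10.5 embryos, taken at mid-gestation and kept in cold PBS before extraction, was read on 12 Affymetrix 3' expression arrays. There were 4 genotypes with 3 arrays each, which the titles call biological replicates and which are called embryos here: wild type (wt), Acd acd/acd (acd), p53-/- (p53), and Acd acd/acd with p53-/- (double). The Acd gene makes TPP1, which belongs to shelterin, the cap of telomeres, and p53 is a transcription factor activated by DNA damage. The design asks which acd effects depend on p53; the labels do not describe the alleles, and strain, litter and pooling are not stated there. Because whole embryos were measured, fewer cells of a type and less RNA per cell cannot be told apart.

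In many cells, growth factors and stress act through the ERK, JNK and p38 kinases on factors already bound near these genes, among them SRF with its ternary complex partners and CREB. Fos and Jun proteins pair through leucine zippers to form AP-1, Atf3 is a related factor induced by stress, and the Egr proteins bind DNA through zinc fingers. Dusp1 is a phosphatase that switches the kinases off again, and Ier2 encodes a short-lived nuclear protein. In the embryo, Egr2, also called Krox20, is best known from hindbrain segments and from neural crest derivatives, and Dusp6, Spry and Etv genes report FGF signalling through ERK.

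The promoters of Fos, Dusp1 and Jun are shown because these genes moved apart in the array with the largest deviations: the first pair was highest there and Jun lowest. Each sequence is the 250 bases before the annotated start, 5′ to 3′ on the gene's strand, from RefSeq (GRCm38.p6). Capitals mark the CREB-type words TGACGTCA and TGACG, the AP-1-type words TGACTCA and TGACATCA, and the TATA word TATAAA; both strands were searched, and every TGACGTCA also holds TGACG. The CArG box, the SRF element, was searched as a pattern: CC, a run of A or T bases, then GG.
Fos: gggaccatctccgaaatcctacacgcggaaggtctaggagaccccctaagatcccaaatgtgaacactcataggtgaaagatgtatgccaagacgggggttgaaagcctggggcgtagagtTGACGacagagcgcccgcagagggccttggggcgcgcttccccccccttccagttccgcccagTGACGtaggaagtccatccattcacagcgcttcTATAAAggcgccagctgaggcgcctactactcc
Dusp1: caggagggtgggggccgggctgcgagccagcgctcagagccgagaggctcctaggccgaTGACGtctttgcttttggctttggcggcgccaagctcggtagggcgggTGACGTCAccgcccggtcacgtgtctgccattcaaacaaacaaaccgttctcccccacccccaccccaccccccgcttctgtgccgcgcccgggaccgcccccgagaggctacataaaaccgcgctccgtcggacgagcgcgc
Jun: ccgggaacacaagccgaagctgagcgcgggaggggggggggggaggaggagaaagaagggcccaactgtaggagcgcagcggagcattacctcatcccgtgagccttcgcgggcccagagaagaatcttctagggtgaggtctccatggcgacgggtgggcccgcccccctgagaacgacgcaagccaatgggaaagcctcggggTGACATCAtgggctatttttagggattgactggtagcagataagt
The Fos sequence lies at chr12:85473640-85473889 on the plus strand, that of Dusp1 at chr17:26508473-26508722 and that of Jun at chr4:95052223-95052472, both on the minus strand.

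The Fos promoter held TGACG at -129 and -66 and TATAAA at -33 (first base of the word, counted from the start). The Dusp1 promoter held the full TGACGTCA at -143, a word found in 1.55% of the 32851 promoters of the same length, and TGACG also at -191. The Jun promoter held TGACATCA at -45, found in 2.93% of promoters. TGACG was in 17.8%, TATAAA in 12.4%, TGACTCA in 4.46% and the CArG box in 1.47% of all promoters. Of the other members with an entry, Atf3, Fosb, Junb and some Egr2 starts held TGACG. Among the 7 members searched a CArG box was found at Egr2 alone, before 4 of its 5 annotated starts. Only the 250 bases before each start were searched, so boxes further away would be missed. Sequences were found for 7 of the 10 members, all but Egr1, Egr3 and Ier2. A word match describes letters and is neither a bound site nor a cause.

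Values are log2 expression values after RMA, so a difference of 1 is a doubling. Array medians lay between 5.32 and 5.40. Over the genes tested, each array's median correlation to the others was at least 0.995, except 0.972 in double replicate 1 and 0.987 in double replicate 2. These arrays stand apart, so results that rest on them are given with and without them. The targeted transcript Acd measured 8.22 to 8.44 in the 6 acd and double arrays and 8.84 to 9.05 in the 6 others. Y-linked transcripts were found in all 3 acd and all 3 p53 embryos but in 1 wt and 1 double embryo, so sex differs between the genotypes, and its part in the results was not tested. The mean levels of markers of primitive blood, neurons and heart muscle, tissues of a whole embryo, were 9.11 to 11.9 in every array. Relative to the wt mean, heart muscle markers lay at -0.87 in double replicate 3, and neuron markers at 0.62 in double replicate 2 and -0.50 in acd replicate 3; the part of tissue make-up in the results was not tested.

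The 10 genes lay at very different places in the array's range. Ier2 (9.77 to 10.53), Jun (9.17 to 9.82) and Dusp1 (8.74 to 9.12) were above the 82nd percentile of probe sets in all 12 arrays. Egr1 measured 6.95 to 7.44, Egr3 6.46 to 6.80, Atf3 6.02 to 6.69 and Fos 5.54 to 6.69, the last between percentiles 52.1 and 64.2. Fosb (3.33 to 3.77), Junb (3.79 to 4.30) and Egr2 (3.84 to 4.44) lay below the 40th percentile of every array. Whether they exceed background is not given by these values, and no change of any of them is read as a result. Counts and medians are given over the 7 members tested, and medians over all 10 only beside them. Probe sets differ in brightness, so these levels do not rank the transcripts. A gene was tested where it passed the 40th percentile in at least 3 arrays, which left 7 members; each of these passed in all 12 arrays, so none entered through 1 genotype alone.

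**Figure D1:**
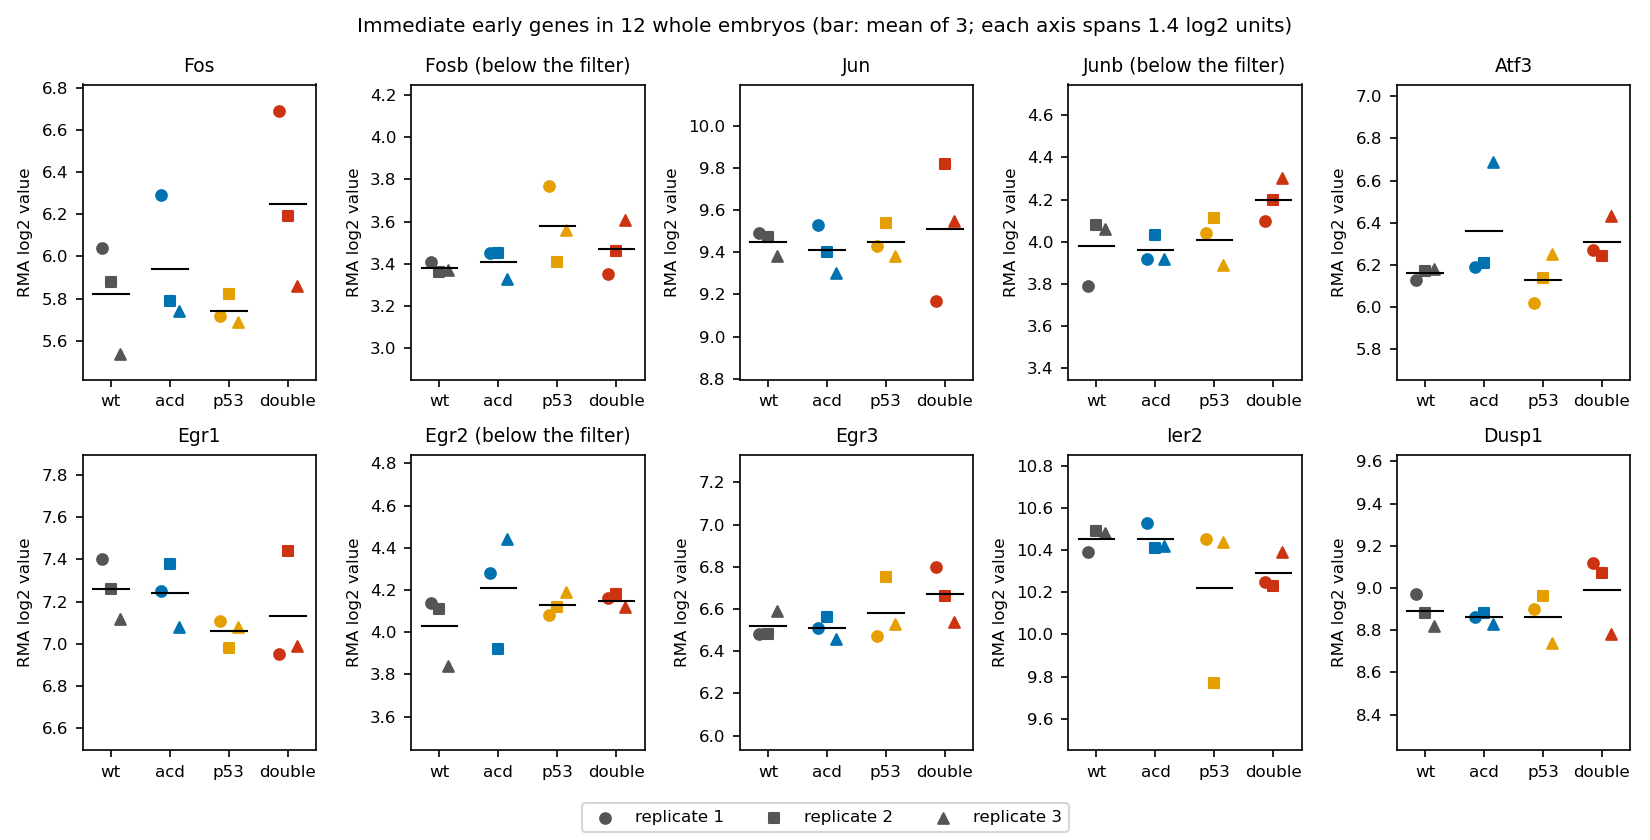
RMA log2 values of the 10 immediate early genes (vertical axes, each spanning the same width of 1.4 log2 units) by genotype (horizontal axes); a point is 1 embryo, its shape the replicate number, and the bar the mean of 3. Single embryos stand out gene by gene: double replicate 1 for Fos at 6.69, p53 replicate 2 for Ier2 at 9.77 and acd replicate 3 for Atf3 at 6.69.

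Fos, the AP-1 partner of Jun, varied more between embryos than the other members tested. It measured 6.04, 5.88 and 5.54 in wt replicates 1 to 3, 6.29, 5.79 and 5.74 in acd, and 5.72, 5.82 and 5.69 in p53. In double embryos it measured 6.69, 6.19 and 5.86. All 3 double arrays lay above all 3 p53 arrays, while double replicate 3 lay within the wt and acd ranges. The Fos mean was 1.42-fold higher in double than in p53 embryos (log2 0.50 ± 0.21 SE, 95% interval 0.05 to 0.95), and limma's test, adjusted over 13500 genes, was not passed (adjusted p = 0.463). Against wt the difference was 0.43 (-0.02 to 0.88) and against acd 0.31 (-0.14 to 0.76), but without double replicates 1 and 2 these were 0.04 and -0.08. Its pooled SD within genotypes, 0.29, was larger than that of 93.6% of tested genes, whose median was 0.14.

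The Fos difference from p53 followed which double embryos were in the fit. Without double replicate 3 it was 0.70 and passed limma's test (adjusted p = 0.0403), in a fit that called 13.0% of all genes. Over its other settings the adjusted p ran from 0.236, with array weights in a fit that called 0.904% of genes, to 0.998. Without replicate 1 it was 0.28, and without replicates 1 and 2, which leaves 1 double embryo that is assumed to vary like the other groups, 0.12. Relative to the wt mean, the 12 macrophage markers measured averaged 1.45 and 0.89 in double replicates 1 and 2, and -0.22 in replicate 3. The 9 interferon response genes measured averaged 4.20, 3.69 and 0.22 in the same embryos, against 0.12 to 0.22 in acd and -0.01 to 0.13 in p53. Of these lists, Aif1 among the macrophage markers and Ifit1, Ifit3, Irf7 and Oasl2 among the interferon genes passed the filter in fewer than 3 arrays. The order of the 3 double embryos was the same for Fos, at 0.87, 0.38 and 0.04. It was also that of the 6 primitive blood markers measured, at 0.47, 0.14 and -0.32. The median correlations of these arrays to the others rose in that order, at 0.972, 0.987 and 0.995. The part of these cells, of interferon or of the arrays' departure in the Fos order was not tested.

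Jun, the partner of Fos in AP-1, had another order of embryos. It measured 9.49, 9.47 and 9.38 in wt, 9.53, 9.40 and 9.30 in acd, and 9.43, 9.54 and 9.38 in p53. The double embryos held both its lowest value, 9.17 in replicate 1, and its highest, 9.82 in replicate 2, with 9.55 in replicate 3. The genotype means lay within 0.11 of each other, and the double minus p53 difference was 0.07 (95% interval -0.23 to 0.36). The other Jun probe set gave 9.15, 9.57 and 9.18 in the double embryos, and so placed replicate 2 highest as well. It placed replicate 3 below all wt arrays (9.24 to 9.41), where the brighter set placed it above them. Its double minus wt difference was -0.01, against 0.07 on the brighter set. With array weights, which gave double replicate 1 a weight of 0.07, Jun was called higher in double than in acd (0.35, limma adjusted p = 0.0312) and than in wt (0.31, adjusted p = 0.0423). Those fits called 13.2% and 13.4% of all genes. Over the other settings the adjusted p was not under 0.05, and without double replicate 2 the Jun difference from acd turned to -0.05 and that from wt to -0.09.

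Atf3, the stress-induced member, was high in 1 acd embryo. It measured 6.13, 6.17 and 6.18 in wt, 6.19, 6.21 and 6.69 in acd, 6.02, 6.14 and 6.25 in p53, and 6.27, 6.24 and 6.43 in double. The acd and the double arrays all lay above the wt arrays, though by as little as 0.01 in acd. The acd minus wt difference was 0.20 (95% interval -0.07 to 0.47) and did not pass (limma adjusted p = 1); without acd replicate 3 it was 0.04. In that embryo neuron markers lay at -0.50 relative to wt, and all 6 of them were lower in acd than in wt (median -0.25, none called); their part in the Atf3 value was not tested. Double minus wt was 0.15 (-0.12 to 0.42) and double minus p53 0.18 (-0.09 to 0.45). Fosb and Junb, the relatives of Fos and Jun that lay below the filter, stayed within 0.44 and 0.51 between their lowest and highest arrays. Junb was above all wt and all acd arrays in the 3 double embryos, at 4.10, 4.20 and 4.30, values not shown to be above background.

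Among the Egr factors, Egr1 measured 7.40, 7.26 and 7.12 in wt, 7.25, 7.38 and 7.08 in acd, and 7.11, 6.98 and 7.08 in p53. All p53 arrays lay below all wt arrays, the nearest 0.01 apart. The difference was -0.20 (95% interval -0.49 to 0.09; limma adjusted p = 1). In double embryos Egr1 measured 6.95, 7.44 and 6.99, so that replicate 2 was the highest and replicate 1 the lowest of all 12 arrays. Egr3 measured 6.48, 6.48 and 6.59 in wt, 6.51, 6.56 and 6.46 in acd, 6.47, 6.75 and 6.53 in p53, and 6.80, 6.66 and 6.54 in double. Its double minus acd difference of 0.16 (-0.04 to 0.36) did not pass (adjusted p = 0.464), and was 0.03 in double replicate 3 alone. A further Egr3 probe set lay at 3.04 to 3.42 and is not shown to be above background. Egr2 lay below the filter on both its probe sets, and its brighter one was highest in acd replicate 3, at 4.44.

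Ier2 was steady in 11 arrays and low in 1. It measured 10.39, 10.49 and 10.48 in wt, 10.53, 10.41 and 10.42 in acd, 10.45, 9.77 and 10.44 in p53, and 10.25, 10.23 and 10.39 in double. The p53 minus wt difference of -0.24 (95% interval -0.56 to 0.09; limma adjusted p = 1) rested on p53 replicate 2 and was -0.01 without it. All 3 double arrays lay below all acd arrays, with a difference of -0.16 (-0.49 to 0.16; adjusted p = 0.632). Dusp1, which dephosphorylates the kinases that induce the other members, measured 8.97, 8.88 and 8.82 in wt, 8.86, 8.88 and 8.83 in acd, and 8.90, 8.96 and 8.74 in p53. In double embryos it was 9.12 and 9.07 in replicates 1 and 2, above every other array, and 8.78 in replicate 3. Its double minus p53 difference of 0.12 (-0.09 to 0.34; adjusted p = 0.567) turned to -0.09 without double replicates 1 and 2.

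**Figure D2:**
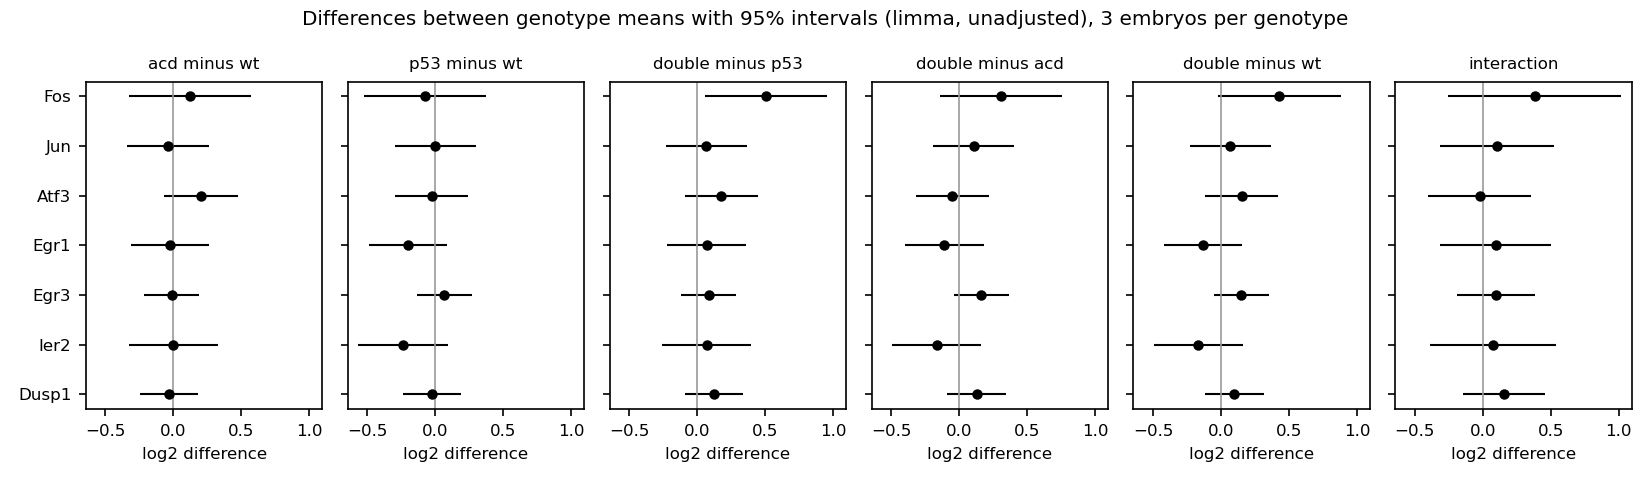
Log2 differences between genotype means (horizontal axes) for the 7 members tested (vertical axis) in 6 comparisons; points are limma estimates and lines unadjusted 95% intervals. Every interval but that of Fos in double minus p53, at 0.05 to 0.95, includes 0.

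Over the whole set, no member passed limma's test in any of the 6 comparisons. In acd against wt, which asks what homozygous acd changes where p53 is present, 0.0148% of 13500 genes passed. Of the 7 members 2 were higher and 5 lower, with a median of -0.01 (-0.0065 over all 10) beside -0.0063 over all tested genes. No member had an unadjusted p under 0.05, against 1.77% of genes. Groups did not overlap for 1 tested member, Atf3, where they did not for 17.1% of genes. In p53 against wt, where no gene passed, no member and 0.719% of genes had an unadjusted p under 0.05. Egr1 alone did not overlap, against 6.77% of genes, and the median of the 7 was -0.03 (-0.01 over all 10) beside -0.0035.

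In double against p53, which asks what acd changes without p53, 7 of 7 tested members were higher. Their median was 0.09 (0.08 over all 10), beside -0.0089 over all tested genes, of which 48.0% were higher. Fos alone had an unadjusted p under 0.05, as did 10.7% of genes, and Fos alone did not overlap, as was so for 8.29% of genes; 0.00741% of genes passed. Without double replicate 1 again 7 of 7 were higher (median 0.16), without replicate 2 it was 5 of 7 (0.09), and with replicate 3 as the only double embryo 4 of 7 (0.10). The small size sets the limits of this count: apart from Fos, the 6 tested differences lay between 0.07 and 0.18. The Ier2 difference rested on the low value of p53 replicate 2 and was -0.15 without that array.

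In double against acd, which asks what loss of p53 changes in acd embryos, 4 of the 7 members were higher and 3 lower (median 0.11, or 0.08 over all 10, beside -0.01 over all genes). Without double replicate 2 it was 3 higher and 4 lower (median -0.01), and without replicates 1 and 2 also 3 and 4 (-0.06). No gene passed, 12.6% of genes and no member had an unadjusted p under 0.05, and Ier2 alone of the tested members did not overlap, against 11.3% of genes. In double against wt, 5 of 7 were higher (median 0.10, or 0.11 over all 10), and 4 of 7 without double replicate 2 (0.06) and without replicates 1 and 2 (0.02). No member and 11.1% of genes had an unadjusted p under 0.05, and Atf3 alone of the tested members did not overlap, against 13.2%; 0.0148% of genes passed. These comparisons share the double arrays with the one above. The interaction tests whether the acd effect differs without p53, by taking acd minus wt away from double minus p53. It passed for no gene; no member and 3.93% of genes had an unadjusted p under 0.05. Among the 7 tested, Fos had the largest value, 0.38 (95% interval -0.25 to 1.02; limma adjusted p = 0.879), followed by Dusp1 at 0.16 (-0.15 to 0.46). Without double replicates 1 and 2 these were -0.0042 and -0.06.

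**Figure D3:**
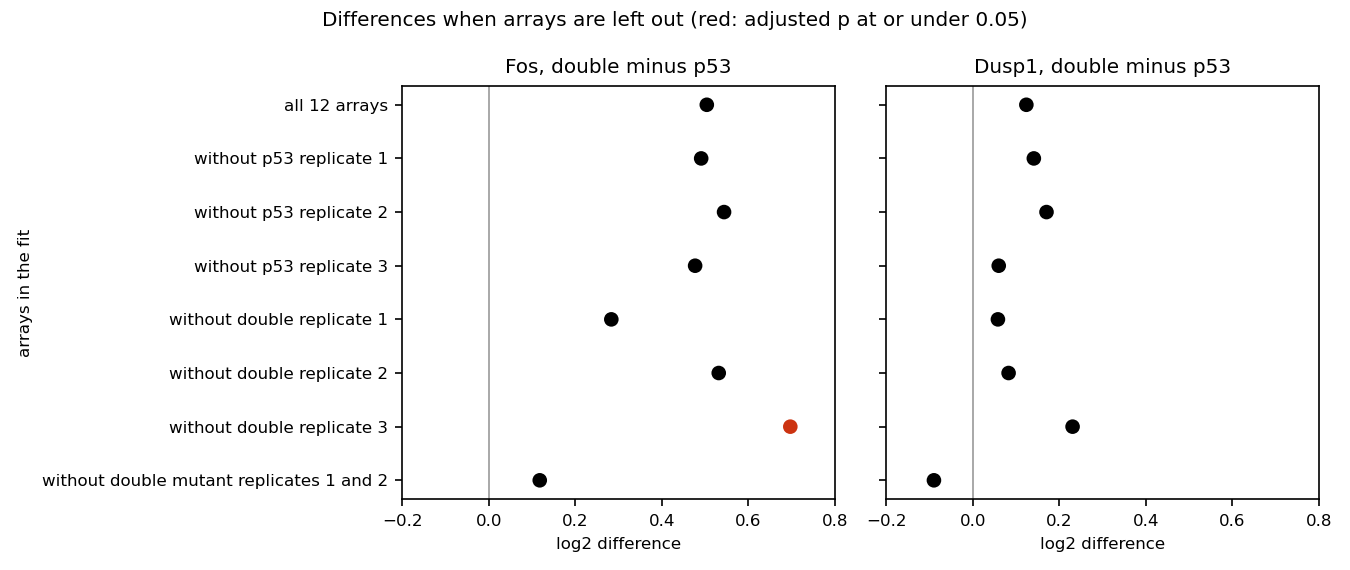
Log2 differences between double and p53 embryos (horizontal axes) for Fos and Dusp1, with the arrays named on the vertical axis left out of the fit. Fos ranged from 0.12 to 0.70 and passed limma's test in 1 setting, without double replicate 3; Dusp1 ranged from -0.09 to 0.23 and passed in none of those shown.

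The intervals bound what these arrays could have missed, given a spread per gene that was pooled over all 4 genotypes. For Egr3 and Dusp1, which had the smallest spread of the 7 members tested, the acd minus wt intervals were -0.21 to 0.19 and -0.25 to 0.18, so that a change of 0.3 in either direction lay outside them. For Fos the same interval was -0.33 to 0.57. The spread also differed by genotype. In wt embryos the median SD of the 7 tested members was 0.06, as over all tested genes. It was 0.12 in acd and 0.11 in p53, beside 0.07 and 0.10 over all genes. Double embryos had the widest spread, 0.19 beside 0.21. Through the pooling, this spread also enters the intervals and p-values of acd minus wt and p53 minus wt.

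The members did not rise and fall as 1 group across embryos. Relative to the wt mean, double replicate 1 lay at 0.87 for Fos, 0.29 for Egr3 and 0.23 for Dusp1, and at -0.28 for Jun, -0.31 for Egr1 and -0.21 for Ier2. Double replicate 2 was at 0.38 for both Fos and Jun, 0.18 for both Egr1 and Dusp1, and -0.23 for Ier2. Of the 21 pairs among the tested members, 9 correlated above 0 over the 12 arrays, with a median r of -0.03. Fos and Dusp1 had the highest r, 0.75, or 0.36 over the 10 arrays without double replicates 1 and 2. Fos and Jun correlated at -0.02 over 12 arrays and at 0.64 over those 10. Egr3 and Ier2 had the lowest, -0.73 and -0.84. These values describe 12 arrays that share genotypes and, for the extremes, single embryos.

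**Figure D4:**
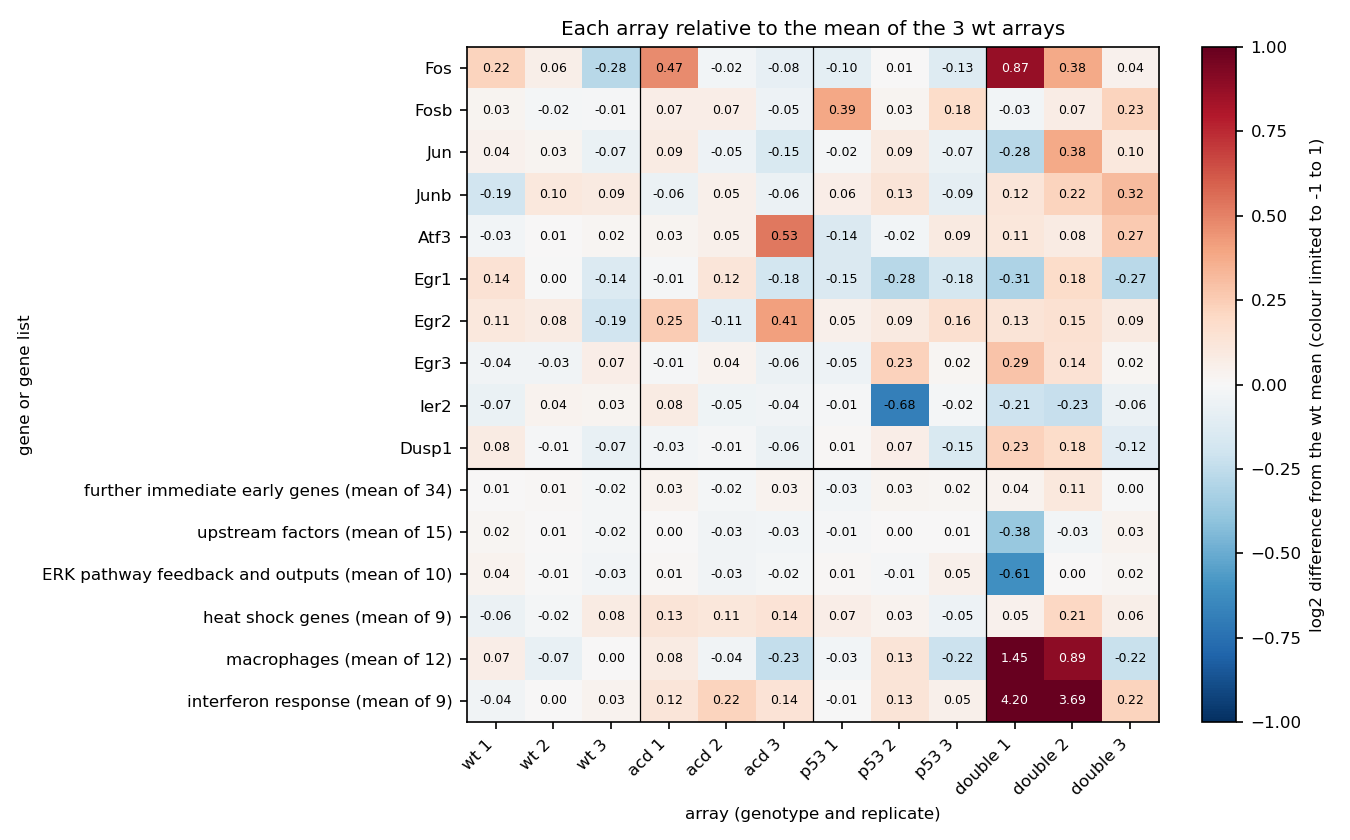
Log2 difference of each array (horizontal axis) from the mean of the 3 wt arrays for the 10 members and, below the line, the mean of the measured genes of 6 lists (vertical axis); colours are limited to -1 to 1 and the numbers are not. In double replicate 1, Fos lay at 0.87 while Jun lay at -0.28 and the ERK pathway list at -0.61; in double replicate 3 Fos lay at 0.04.

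Further immediate early genes were read from a list of 34, of which 32 were tested. None passed limma's test in any of the 6 comparisons. In double against p53, 18 of the 32 were higher and 14 lower (median 0.07), and 3 had an unadjusted p under 0.05, a share near the 10.7% over all genes. Gadd45b, a stress-responsive regulator of growth arrest, measured 0.50 ± 0.15 (adjusted p = 0.463). It lay at 7.66 and 7.54 in double replicates 1 and 2, at 6.94 in replicate 3 and at 6.75 to 7.00 in the 9 other arrays. Klf4, a zinc finger factor, measured 0.49 ± 0.20, with 6.98, 7.50 and 6.69 in the double embryos. Maff, a small Maf protein, measured -0.28 and Rhob, a small GTPase, 0.21.

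In double against acd, Dusp5, a phosphatase of ERK, measured -0.37 ± 0.10 (limma adjusted p = 0.371). It lay at 6.50 and 6.56 in double replicates 1 and 2, below all others, and at 6.94 in replicate 3. Ier5 measured 0.33 and Id3, an inhibitor of basic helix-loop-helix factors, 0.17. Without double replicate 3, in fits that called 13.0% and 13.9% of genes, Gadd45b, Ier5 and Dusp5 were called against p53 (0.72, 0.46 and -0.27; limma adjusted p 0.00139, 0.00814 and 0.0345) and against acd (0.72, 0.53 and -0.50). Against acd alone, Btg2 (0.42), Myc (-0.57) and Sik1 (-0.57) were called as well (limma adjusted p 0.0446, 0.0305 and 0.0384). Without double replicate 1 these differences from acd were 0.16, -0.09 and -0.12. With replicate 3 as the only double embryo they were -0.03, 0.12 and -0.0074. Klf4 was called against p53 (0.67, limma adjusted p = 0.0463), and measured 0.12 with replicate 3 as the only double embryo. With replicate 3 as the only double embryo, the differences of Gadd45b, Ier5 and Dusp5 from p53 were 0.06, -0.14 and 0.14. Smallest p-values in acd against wt belonged to Ccn2, a secreted matrix protein (0.13), and Dusp5 (0.18), and in p53 against wt to Maff (0.19) and Klf6 (-0.28). None passed (limma adjusted p = 1). Klf6 measured 8.82, 8.02 and 8.84 in p53 replicates 1 to 3 and 8.84 in each wt array. Its difference thus rested on p53 replicate 2.

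With all arrays, the factors and kinases that act on the members did not pass. Of 15 upstream genes tested, 11 were lower in double against p53 (median -0.14). Relative to wt their mean lay at -0.38 in double replicate 1, and at -0.03 and 0.03 in replicates 2 and 3. Without replicate 1 this list counted 7 higher and 8 lower (median -0.03). Srf, the serum response factor that binds the CArG box, measured 7.38 in double replicate 1, 7.91 in replicate 2 and 8.08 in replicate 3, against 8.03 to 8.19 in the other 9 arrays. Its difference was -0.34 ± 0.14 (limma adjusted p = 0.463), or -0.13 without double replicate 1. Mapk14, the kinase p38 alpha, measured -0.27 ± 0.11, or -0.15 without that array. Without double replicate 3 the fits called 13.0% of all genes against p53 and 13.9% against acd. In them Srf (-0.48) and Mapk14 (-0.39) were called against p53 (limma adjusted p 0.0337 and 0.0206), and Mapk14 also against acd (-0.38). That is 2 of the 15 upstream genes against p53 and 1 of 15 against acd. Genes that report or restrain ERK signalling, among them Dusp6, the Spry and Spred genes, Etv4 and Etv5, were lower in 10 of 10 (median -0.21), with Etv4 at -0.39 ± 0.17 (adjusted p = 0.463). It rested on 1 embryo: their mean lay at -0.61 relative to wt in double replicate 1 and at 0.0032 and 0.02 in replicates 2 and 3. Without replicate 1 the list counted 5 higher and 5 lower (median -0.02). In the same fits without replicate 3, Etv4 (-0.56) and Spred1 (-0.43) were called against p53 (limma adjusted p 0.0425 and 0.0335). Etv5 (-0.57) and Spred1 (-0.44) were called against acd, so that 2 of the 10 were called in each. The Egr corepressors Nab1 and Nab2 measured 0.03 and -0.05.

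Heat shock genes, a gauge of protein stress, were split in double against p53, with 4 of 8 higher and 4 lower. Hspa1b, an inducible Hsp70, measured 0.89 ± 0.18 (limma adjusted p = 0.463). It lay at 8.33, 8.50 and 7.75 in the double embryos, 6.97 to 7.47 in p53, 7.28 to 7.55 in wt and 7.71 to 7.79 in acd. Every double array was above every p53 and wt array, comparisons in which 8.29% and 13.2% of genes did not overlap. Replicate 3 lay within the acd range. The Hspa1b difference from p53 was 0.82 without double replicate 1 and 0.45 with replicate 3 as the only double embryo. Without replicate 3 it was 1.12 and was called (limma adjusted p = 0.00132), in a fit that called 13.0% of genes. Against acd that setting called 13.9% of genes, among them Hspa1b, Hsph1, Hspd1 and Hsp90aa1, at 0.66, -0.47, -0.49 and -0.37. Without double replicate 1 these 4 differences from acd were 0.37, -0.23, -0.19 and -0.09. With replicate 3 as the only double embryo they were -0.0057, -0.13, -0.07 and -0.03. In acd against wt Hspa1b measured 0.35 ± 0.18 (limma adjusted p = 1). The acd arrays were all above the wt arrays, in a comparison where 17.1% of genes did not overlap.

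The tested genes whose levels were most like those of Fos over the 12 arrays were Fbln5, an elastic fibre protein (r = 0.96), Mx2, an interferon-induced GTPase (0.95), and Tgfbr2, a TGF-beta receptor (0.93). Without double replicates 1 and 2 these were 0.87, 0.91 and 0.92 over 10 arrays. Mx2 measured 5.46, 5.23 and 4.90 in the double embryos and 4.72 to 5.05 in the other 9, below the array medians in all but double replicate 1. The genes most like Egr1 were Ankib1 (r = 0.85), Homer2 (0.84) and Grik5 (0.82). These are the highest of the correlations with all tested genes and describe these arrays alone.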

How the data were processed

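Whole-embryo RNA (250 ng, labelled with a 3' kit, per the labels' protocols) was read on 12 arrays. Values were used as deposited, on the log2 scale. They come from justRMA, which the authors ran on the scanner files before selecting genes with BRB-Array tools 4.4.0, per the series' design text. Quantile normalization in RMA hides any change in total RNA. Depth does not apply to arrays; their number limits the precision. Scanner files were not used here.

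Of 45101 probe sets, 34945 had 1 symbol, 932 had several and 9211 were not listed; the filter's percentiles leave out 64 controls, most of them among those not listed. Of those with 1 symbol, 34741 matched a RefSeq table (GRCm38.p6) by gene ID. That table gave chromosomes and matched older names in the lists, and the platform's symbols were kept. Each gene was read from its brightest probe set on average, and tested if above the 40th percentile in at least 3 arrays. limma 3.58.1 (R 4.3.3, statmod 1.5.0) fitted 4 genotype means to 12 arrays (8 residual degrees of freedom), with moderated two-sided tests, at an adjusted p of 0.05 (Benjamini-Hochberg, all tested genes of each comparison). The test was checked on simulated data in which each gene had the same spread in every genotype. That check does not cover the wider spread of the double embryos. Python 3.11.15 was used for the rest. Where the labels do not tie replicates to separate litters, p-values measure only the spread between these embryos.

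All 10 members are named; of each related list, up to 4 genes with the smallest p in the comparison described and any that pass; and for Fos and Egr1 the 3 genes most correlated. The members and lists were chosen with earlier results of these data known. Genes of the lists without a single-symbol probe set were not analysed here. Alternatives were a replicate block, other filters, probe set rules, normalizations, variance models and array weights, only the arrays compared, and leaving out each array; leaving out double replicates 1 and 2 was added after seeing the data. Replicate numbers are not stated to pair the embryos, and the arrays do not settle it. Deviations of same-numbered arrays correlated at -0.23 to 0.39, above 0.1 in 7 of 18 pairs. Those of differently numbered arrays correlated at -0.39 to 0.28.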

Additional observations from a re-analysis of the deposited data

How the results depend on the processing

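Over 1364 member values under other settings, 3 came to pass the test and 18 moved without passing, most of them when double replicates 1 and 2 were left out. The count of members called went from 0 to 1 in double minus p53 without double replicate 3 (Fos), and with array weights in double minus acd and in double minus wt (Jun in both). Medians here are over all 10 members, the 3 faint ones included. The median difference in double minus p53 was 0.08, 0.16 with array weights, and 0.072 to 0.14 when 1 array was left out, the highest without p53 replicate 2. In double minus acd it was 0.08, 0.027 to 0.11 when 1 array was left out, the lowest without double replicate 2, and -0.013 without both double replicates 1 and 2. Over the 7 tested it was 0.11, -0.01 without double replicate 2 and -0.06 without both. For p53 minus wt it was -0.01, and -0.024 to 0.038 when 1 array was left out, the highest without p53 replicate 3. For the interaction it was 0.10, 0.056 to 0.12 when 1 array was left out (lowest without double replicate 2), 0.15 with array weights and -0.0033 without double replicates 1 and 2. The causes of these moves were not tested. The replicate block gave 0 members called in all 6 comparisons (for Fos, double minus p53, the difference was 0.50 and the limma adjusted p 0.425), as did tests of every probe set on its own. Fos was not tested with the 60th percentile filter, and the interaction uses all arrays, so the setting with only the arrays compared was not run for it. The SD of the array medians of the members within genotypes, 0.05, was the yardstick for the medians. Faint members (Fosb, Junb, Egr2) cannot be read at this signal.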
